A study of Mus musculus with 22 samples.

Results

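The 10 genes described here were *Tmem255a*, *Sparcl1*, *Cav1*, *Ednrb*, *Sparc*, *Clu*, *Prtg*, *Lgals1*, *Cotl1* and *Ybx1*. They were picked from measured values, as genes with a clear change between E9.5 and E11 in CD44Neg cells, out of 24454 gene symbols in the count table. All 10 were among the 12949 genes that passed the filter on low counts. Bulk RNA-seq was performed on 22 libraries of 25 sorted cells, taken from the aorta-gonad-mesonephros (AGM) region of C57Bl/6 mouse embryos. All cells had been sorted as VE-Cadherin positive, and 4 populations were separated by CD44 and Kit. For CD44Neg there were 4 libraries of E9.5 embryos and 3 each of E10 and E11. CD44LowKitNeg had 1, 2 and 3 libraries of these stages, CD44LowKitPos gave 1 at E9.5 and 2 at E10, and CD44High gave 3 at E11. No treatment or transgene was named in the labels. The labels do not say which embryos or litters a library came from, so p-values measure only the spread between these libraries. The labels end in a number, whose meaning they do not state, that changed with the stage in every population, so stage and whatever this number marks cannot be told apart.

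The AGM is where the embryonic dorsal aorta gives rise to haematopoietic stem and progenitor cells. Endothelial cells of its wall lose endothelial gene expression and gain a blood programme, a process called endothelial to haematopoietic transition. Over the same days the remaining aortic endothelium matures, laying down basement membrane and building membrane structures such as caveolae. This is background, and maturation was not measured here. The authors describe venous and arterial markers in CD44Neg cells and propose that some of these cells came from cardinal veins. Whether that make-up shifted with stage was not tested. Several of the 10 genes encode components of endothelial cells. *Cav1* encodes caveolin-1, the main coat protein of endothelial caveolae. *Sparc* and *Sparcl1* encode related secreted matricellular proteins, and *Ednrb* encodes the type B endothelin receptor. *Tmem255a* encodes a membrane protein whose role is poorly characterised. *Cotl1* encodes coactosin-like protein, which binds actin filaments. *Clu* encodes clusterin, a secreted chaperone, and *Lgals1* encodes galectin-1, a lectin that binds galactosides. *Prtg* encodes protogenin, a cell surface receptor related to DCC and neogenin. *Ybx1* encodes a Y-box protein with a cold-shock domain that binds RNA and DNA.

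Between 3912350 and 8657546 reads were counted per library (median 5758382.5), with 1.92% to 23.9% of them assigned to *Rn45s*, the precursor of ribosomal RNA. Levels are given as CPM, the counts relative to library size, after scaling by edgeR's TMM method (normalized CPM). Where a library held no read of a gene, up to 3 reads remained possible (0.348 to 0.816 normalized CPM), a limit for counting error only. All 8 endothelial markers were detected in every CD44Neg and CD44LowKitNeg group, with sums of 3519 to 5924 and 3723 to 8666 normalized CPM. Their sum was 766 to 1854 in CD44LowKitPos and 14.3 to 78.8 in CD44High, where *Cdh5*, the gene of VE-Cadherin itself, was at 0 in all 3 libraries. The 6 macrophage markers were all detected in CD44High, with a sum of 995 to 2784, and 5 of the 6 were at 0 in every CD44Neg group. Erythroid markers summed to 48.2 to 255 in CD44High and to at most 61.3 elsewhere, neural markers to at most 17.5, and epithelial and mesothelial markers to at most 87.2. In these bulk libraries, fewer cells of a type and less RNA per cell cannot be told apart.

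Gene positions are from the GENCODE annotation of GRCm38, the assembly also called mm10, which is the build in the submitters' processing notes. *Tmem255a* lies at chrX:38196573-38252439, *Sparcl1* at chr5:104079111-104113733, *Cav1* at chr6:17306335-17341452 and *Ednrb* at chr14:103814625-103844402. *Sparc* lies at chr11:55394500-55423183, *Clu* at chr14:65968483-65981547 and *Prtg* at chr9:72806874-72917291. *Lgals1* lies at chr15:78926725-78930465, *Cotl1* at chr8:119809222-119840544 and *Ybx1* at chr4:119277981-119294604. *Cav1*, *Clu*, *Prtg* and *Lgals1* are on the plus strand, the other members on the minus strand. Antisense genes are annotated over *Sparcl1* and *Cav1*, and *Zbtb33* lies on the opposite strand within the span of *Tmem255a*. *Prtg* is overlapped by *A730062M13Rik* and *Gm37234* on its own strand, which no strand setting tells apart, and by a pseudogene on the other strand. The strand setting of the counting is not given in the sources used here, so reads of such pairs cannot be told apart. Named pseudogenes are annotated for *Lgals1* (2) and *Ybx1* (1), and the values of both genes are uncertain to the extent that shared reads were split.

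RefSeq promoters of GRCm38.p6 matched 6 of the 10 genes, with 7 start sites. The 250 bases before the start are printed for *Cav1* and *Tmem255a*, because both were higher at E11 than at E9.5 in CD44Neg, both were at or near 0 in CD44LowKitPos at E10, and the GENCODE annotation places no exon of either gene in these windows. The window of the first of 2 *Cav1* start sites is chr6:17306085-17306334 on the plus strand, and the *Tmem255a* window is chrX:38252482-38252731 on the minus strand. Capitals mark matches on either strand to the TATA box (TATAAA), the GC box (GGGCGG), the CCAAT box (CCAAT), the E-box (CACGTG) or the CACCC box (CACCC).
Cav1: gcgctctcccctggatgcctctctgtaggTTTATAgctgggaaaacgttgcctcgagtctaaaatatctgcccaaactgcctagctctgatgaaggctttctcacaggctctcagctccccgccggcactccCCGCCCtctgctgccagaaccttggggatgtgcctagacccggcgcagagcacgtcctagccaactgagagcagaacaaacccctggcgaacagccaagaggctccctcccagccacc
Tmem255a: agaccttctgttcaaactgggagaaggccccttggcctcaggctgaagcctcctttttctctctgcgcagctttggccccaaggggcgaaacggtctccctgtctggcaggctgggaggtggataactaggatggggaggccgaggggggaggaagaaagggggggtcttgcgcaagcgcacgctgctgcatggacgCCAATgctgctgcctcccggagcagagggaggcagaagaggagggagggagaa
The printed *Cav1* window held 1 TATAAA and 1 GGGCGG, both on the opposite strand, which 12.4% and 32.7% of all 32851 promoter windows of this length held. The window before the second *Cav1* start site, chr6:17307390-17307639, is not printed and held 0 matches to the motifs searched. The *Tmem255a* window held 1 CCAAT, as did 33.8% of all windows. Neither held CACGTG (6.02% of all windows) or CACCC (52% of all windows). These matches describe letters only, and the windows did not share a motif of those searched.

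The CD44Neg libraries of E9.5 and E11 chose the genes, so their levels are described without a test. Of the 10 genes, 6 were higher at E11 and 4 were lower, and in all 10 the E9.5 and E11 libraries did not overlap. No overlap was seen for 18.2% of the 12949 genes, and nothing can be read from the members' count because the rule used this contrast. That share was not counted for the other comparisons below, where lack of overlap is description only. The rule states no threshold. Ranked by the p-value of the E11 against E9.5 difference, the members lay between rank 2 and rank 1213.

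*Cav1* had the largest rise. Its level in CD44Neg was 52.9, 68.2, 6.33 and 42.8 normalized CPM at E9.5, then 153, 73.8 and 238 at E10, then 740.4, 885 and 1288 at E11. Every E10 library was above every E9.5 library and below every E11 library, and the mean at E11 was 22.8 times that at E9.5. *Sparcl1* followed the same order, with 29.2, 93.5, 43.4 and 44.9 at E9.5, 141, 142 and 143 at E10, and 471, 608 and 617 at E11, a mean 10.7 times higher. The E10 libraries of *Sparcl1* were nearly equal (SD 1.28). *Sparc* was high from the start, with 714 to 836 at E9.5, 941 to 1219 at E10 and 1463 to 1605 at E11, and its mean rose least among the 6, by 1.94 times.

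The other rising genes differed in when the level changed. *Cotl1* was 56.6 to 74.6 normalized CPM at E9.5, 195 to 214 at E10 and 205 to 229.9 at E11, so 93.6% of its log2 change was already present at E10. *Ednrb* had the opposite course, with 17.4, 36, 23.8 and 39 at E9.5, 70.4, 13.4 and 0 at E10, and 206, 147 and 349 at E11. The E10 mean of *Ednrb* (27.9) was no higher than its E9.5 mean (29.1), and 1 of the 3 E10 libraries held none of its reads. *Tmem255a* was 202 to 263 at E9.5 and 759.7 to 1013 at E11, while its E10 libraries were 526, 187 and 578, with 1 of them below all E9.5 libraries. The sum of the 8 endothelial markers moved in the same direction, from 3519 to 4297 at E9.5 through 4909 to 5482 at E10 to 5662 to 5924 at E11, epithelial and mesothelial markers summed to 4.88 to 33.5 at E9.5 and 0 to 1.95 at E11, and neural markers to 0 to 0.239 and 1.06 to 17.5. *Rn45s* took 1.92% to 13.8% of reads at E9.5 and 15.2% to 17.9% at E11. The part of these values in the stage differences was not tested. Replicate 6 of E9.5 stood apart, with the lowest *Rn45s* share and the fewest genes detected (10825), and without it the fitted log2 change of *Cav1* was 4.15 in place of 4.52.

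**Figure D1:**
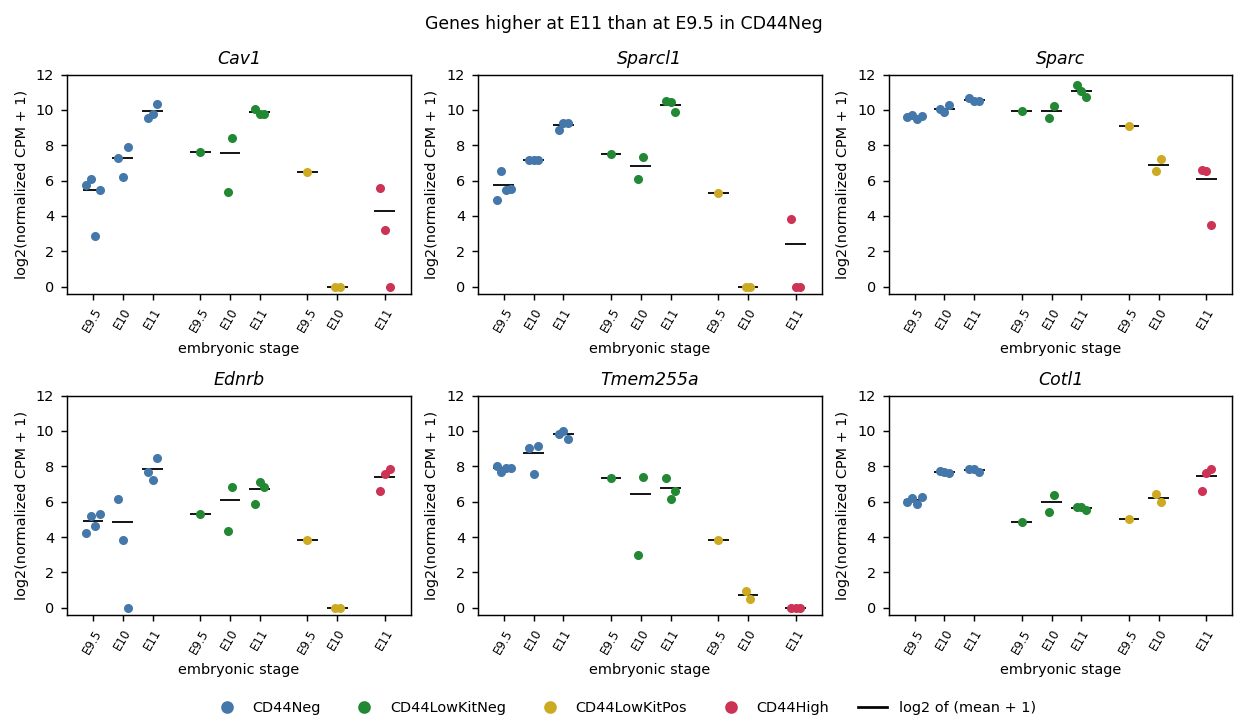
Levels of the 6 genes that were higher at E11 than at E9.5 in CD44Neg, as log2(normalized CPM + 1) against stage, with 1 point per library coloured by population and a line at the log2 of the mean plus 1. *Cav1*, *Sparcl1* and *Sparc* lie highest at E11 in both CD44Neg and CD44LowKitNeg, the E11 libraries of *Tmem255a* and *Cotl1* overlap the earlier ones in CD44LowKitNeg, and *Cav1*, *Sparcl1* and *Ednrb* are at 0 in both E10 CD44LowKitPos libraries.

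Among the falling genes, *Prtg* had the largest ratio. It was 370.1, 157, 435 and 224 normalized CPM at E9.5. At E10 it was 81.8, 83 and 56.2 and at E11 12.2, 19.5 and 7.9, so that the E9.5 mean was 22.5 times the E11 mean and the 3 stages did not overlap. *Clu* was 76, 92.8, 121 and 129.6 at E9.5, 86.3, 34.9 and 60.2 at E10, and 6.89, 3.7 and 9.14 at E11. The E10 libraries of *Clu* overlapped those of E9.5 but not those of E11, and 19.9% of the log2 change was present at E10. *Lgals1* was 364 to 471 at E9.5, 87.2 to 194 at E10 and 69.7 to 122 at E11. *Ybx1* was 706, 682, 714 and 921 at E9.5, 249.7, 374 and 329 at E10, and 185, 220.4 and 262 at E11. For *Lgals1* and *Ybx1* most of the log2 change, 79.7% and 70.9%, was present at E10.

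Scaled to exon length, the order of the members differed between the 2 stages, though *Sparc* was among the highest at both. The CD44Neg libraries of these stages chose the genes as rising or falling, so a change in the members' order follows from the choice. The values are description only. At E9.5 the highest normalized CPM per kilobase in CD44Neg belonged to *Lgals1* (485), *Ybx1* (299) and *Sparc* (205), and *Cav1* (12.4) was below *Clu* (30.5) and *Prtg* (32.4). At E11 *Sparc* (399), *Cav1* (282) and *Tmem255a* (199.6) were highest, and *Clu* (1.91) and *Prtg* (1.44) were lowest. Exon lengths were the union over all annotated transcripts, which may differ from the transcripts these cells used.

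**Figure D2:**
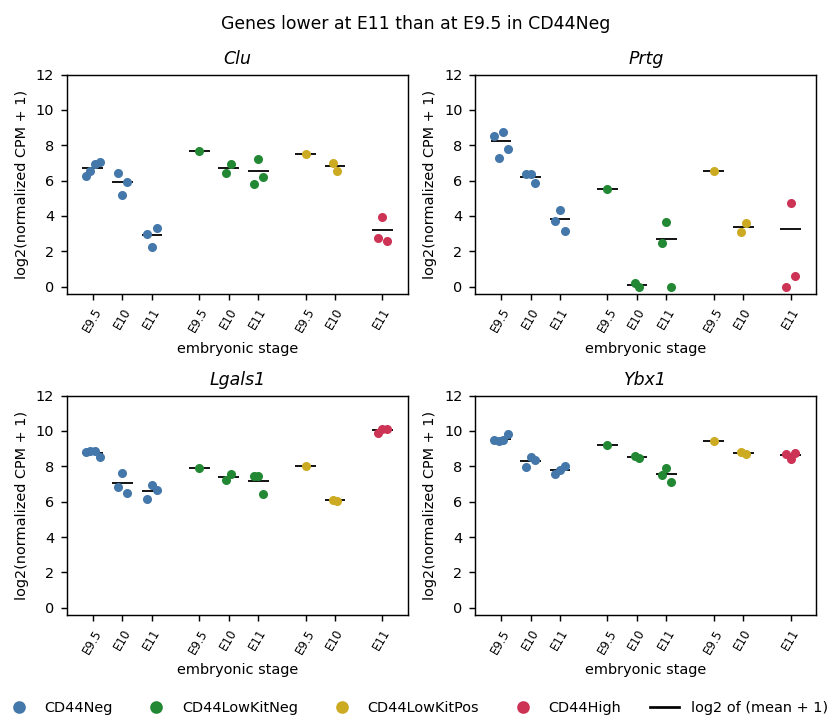
Levels of the 4 genes that were lower at E11 than at E9.5 in CD44Neg, as log2(normalized CPM + 1) against stage, with 1 point per library coloured by population and a line at the log2 of the mean plus 1. The mean of *Ybx1* steps down with stage in every population with more than 1 stage, *Clu* in CD44LowKitNeg is 202 in the E9.5 library and 54.7 to 151 at E11, and *Lgals1* is highest in CD44High.

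CD44LowKitNeg cells took no part in the choice of genes, so their stage course was tested, with the 3 libraries of E11 against the 3 of E9.5 and E10. *Ybx1* fell, and it was the single member called at an adjusted p under 0.01. It was 584 normalized CPM in the E9.5 library, 389 and 352 at E10, and 184, 235 and 137 at E11. The E11 libraries were all below the earlier ones, and the log2 fold change was -1.22 (SE 0.22, adjusted p = 0.00313, edgeR). Over all genes, 1.42% were called lower and 0.201% higher at E11. The median log2 fold change was 0.47 over the members and 0.03 over all genes. The *Ybx1* call rested on single libraries, since the edgeR adjusted p was 0.0137 without replicate 11, 0.0194 without replicate 13 and 0.0281 without replicate 14, the E9.5 library. *Ybx1* was called in 11 of 16 alternative settings.

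*Sparcl1*, *Cav1* and *Sparc* lay higher in all 3 E11 libraries of CD44LowKitNeg than in the 3 earlier ones, but were not called. How many of all genes did so was not counted, so nothing is read from the lack of overlap. *Sparcl1* was 181 normalized CPM at E9.5, 67.5 and 159 at E10, and 1461, 1381 and 944 at E11 (log2 fold change 3.25, SE 0.74, adjusted p = 0.0163). *Cav1* was 192 at E9.5, 39.6 and 341 at E10, and 1072, 857 and 859.9 at E11 (log2 fold change 2.28, SE 0.93, adjusted p = 0.185). *Sparc* was 961 at E9.5, 744 and 1196 at E10, and 2694, 2140.4 and 1673 at E11 (log2 fold change 1.17, SE 0.44, adjusted p = 0.151). All 3 were called with limma voom (adjusted p 5.0e-07, 0.00108 and 0.00101) and without the filter on low counts, settings that called 1.68% and 0.598% of all genes higher. The sum of endothelial markers was 7229.5 to 8666 in the E11 libraries and 3723 to 5004 in the earlier ones. The sum of the 9 mesenchyme markers was 29.2 to 99.1 against 4.19 to 20.3, and none of the 7 tested was called. *Pdgfra* was 7.8, 6.08 and 10.1 at E11 and 0 earlier, and *Col3a1* was 14.8, 21.1 and 36.1 against 0, 5.37 and 0. *Col1a1* and *Lum* were at 0 throughout, and the other mesenchyme markers overlapped. Blood markers moved the other way, with a sum of 4.49 to 16.1 at E11 against 21.4 to 122, and erythroid markers summed to 32.2 to 61.3 against 13.8 to 31.9. None of the 6 blood markers was called, *Ptprc* was at or near 0 throughout, and *Coro1a* and *Spi1* had log2 fold changes of -3.74 and -3.24 (adjusted p = 0.0154 and 0.0356). *Rn45s* took 17.4% to 19.2% of reads at E11 and 7.29% to 11.1% earlier, and *Ybx1* remained called when it was removed before scaling (adjusted p = 0.00385). The part of the marker sums in the differences with stage was not tested.

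None of the other 6 members was called with stage in CD44LowKitNeg. *Tmem255a* was 161 at E9.5, 6.88 and 166 at E10 and 164, 71.3 and 95.9 at E11 (log2 fold change 0.05, SE 0.64), and *Cotl1* was 28.1, then 42.5 and 82, then 50.1, 50.1 and 44.9 (0.02, SE 0.29). The groups overlapped for both genes. *Clu* was 202 at E9.5, 84.6 and 121 at E10 and 54.7, 151 and 72.8 at E11 (-0.47, SE 0.44). *Lgals1* went from 238 through 149 and 189 to 175, 171 and 86.4 (-0.40, SE 0.29), and *Ednrb* from 37.9 through 19.5 and 114 to 58.1, 137 and 114 (0.89, SE 0.90). *Prtg* was 44.6 in the E9.5 library, 0.168 and 0 at E10, and 4.57, 11.8 and 0 at E11. Its fitted log2 fold change of 2.88 (SE 1.68, adjusted p = 0.367) has the sign set by the near absence at E10, although the mean of the earlier libraries (14.9) was above that of E11 (5.45). Whether any member's change differed between CD44Neg and CD44LowKitNeg was not tested, because the CD44Neg values had chosen the genes.

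**Figure D3:**
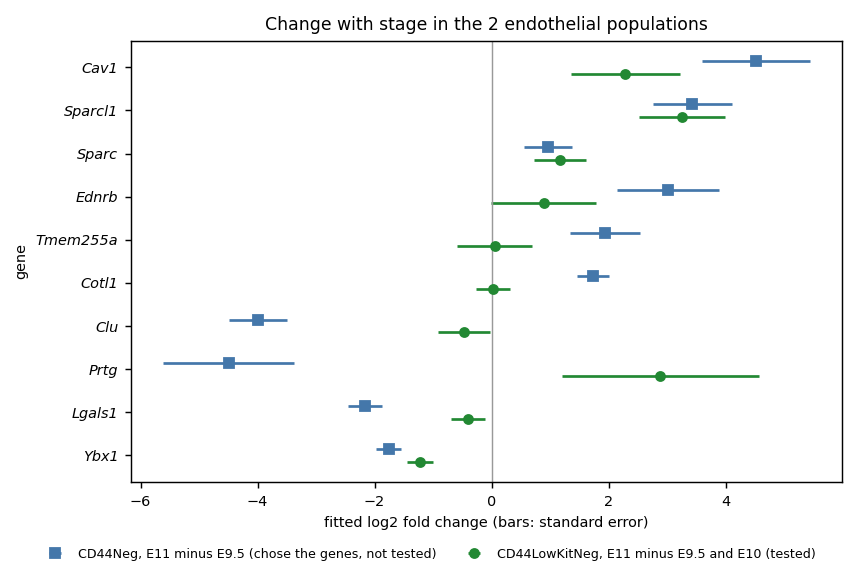
Fitted log2 fold change with stage for each gene, with bars of 1 standard error, in CD44Neg (squares, E11 minus E9.5, the contrast that chose the genes) and CD44LowKitNeg (circles, E11 minus E9.5 and E10). *Ybx1* is at -1.76 in CD44Neg and -1.22 in CD44LowKitNeg, and *Cotl1* and *Tmem255a* are at 0.02 and 0.05 in CD44LowKitNeg.

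At E10, which the rule did not use, the 2 libraries of CD44LowKitNeg were compared with the 3 of CD44Neg. No member was called by edgeR, which called 0.131% of all genes higher and 0.108% lower, and 3 members had an unadjusted p under 0.05, as did 9.92% of all genes in the lower direction. DESeq2's Wald test called 2 members lower, beside 2.31% of all genes, and limma voom 1, beside 0.487%. The 3 genes with unadjusted p under 0.05 were all lower in CD44LowKitNeg, without overlap. *Cotl1* was 42.5 and 82 normalized CPM against 214, 206 and 195 (log2 fold change -1.72, SE 0.34, adjusted p = 0.0168), and DESeq2 gave an adjusted p of 9.2e-05. *Tmem255a* was 6.88 and 166 against 526, 187 and 578 (-2.31, SE 0.78, adjusted p = 0.113), and the value rested on single libraries, at -5.93 without replicate 16 and -1.31 without replicate 15, each of which leaves 1 CD44LowKitNeg library whose spread is taken from the other groups. It was called without the low-count filter. *Prtg* had 1 read in the 2 CD44LowKitNeg libraries together and 1030 in the 3 CD44Neg libraries, a ratio of 987 with a 95% interval of 177 to 39040.1 for counting error only, without the spread between libraries (adjusted p = 0.0231). Blood markers summed to 85.6 to 122 in these CD44LowKitNeg libraries and 1.81 to 11.4 in CD44Neg, with *Spi1* called higher (log2 fold change 6.11, adjusted p = 0.009), *Coro1a* at 4.13 (adjusted p = 0.0231) and *Ptprc* at 0 in both populations. Epithelial and mesothelial markers, mainly *Krt18*, summed to 26.5 to 31.2 against 0 to 6.93, and mesenchyme markers to 4.19 to 11.1 against 0 to 2.81. The part of these markers was not tested. *Cav1*, *Sparcl1*, *Sparc*, *Ednrb*, *Clu*, *Lgals1* and *Ybx1* overlapped between the populations, with adjusted p from 0.399 to 0.94. The median log2 fold change was 0.04 over the members and -0.01 over all genes.

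At E11 the CD44Neg libraries had chosen the genes, and the populations are set side by side without a test. *Clu* was 6.89, 3.7 and 9.14 normalized CPM in CD44Neg and 54.7, 151 and 72.8 in CD44LowKitNeg, whose mean was 14.1 times higher. *Tmem255a* was 8.12 times and *Cotl1* 4.57 times higher in CD44Neg, again without overlap. *Ednrb* was 2.27 times higher in CD44Neg, and *Sparcl1* and *Sparc* were 2.23 and 1.44 times higher in CD44LowKitNeg, also without overlap. The libraries of *Cav1*, *Prtg*, *Lgals1* and *Ybx1* overlapped between the populations. So at E11 both endothelial populations held *Cav1*, at means of 971 in CD44Neg and 929.5 in CD44LowKitNeg, but *Clu* and *Tmem255a* stood on opposite sides. Endothelial markers summed to 7229.5 to 8666 in CD44LowKitNeg against 5662 to 5924 in CD44Neg, and mesenchyme markers to 29.2 to 99.1 against 0.465 to 17.2. Epithelial and mesothelial markers summed to 27.4 to 87.2 against 0 to 1.95, and erythroid markers to 32.2 to 61.3 against 5.56 to 23.7. Blood, macrophage and neural sums overlapped. The part of these markers was not tested.

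CD44High cells were compared with CD44LowKitNeg at E11, with 3 libraries each. Of the 10 genes, 5 were lower and 3 were higher in CD44High, where 8.81% of all genes were called lower and 10.6% higher. The median log2 fold change was -1.43 over the members and 0.05 over all genes. The lower genes were *Tmem255a*, *Sparcl1*, *Cav1*, *Sparc* and *Clu*. *Tmem255a* was at 0 in all 3 CD44High libraries against 164, 71.3 and 95.9, at least 149.8-fold lower (adjusted p = 7.9e-06, edgeR). *Sparcl1* was 13.1, 0 and 0 against 1461, 1381 and 944 (log2 fold change -8.06, SE 0.95, adjusted p = 4.0e-06), and *Cav1* was 46.7, 8.25 and 0 against 1072, 857 and 859.9 (-5.63, SE 1.10, adjusted p = 6.7e-04). Both were highest in replicate 20 and at 0 in replicate 22. *Sparc* was 95.8, 93.5 and 10.3 against 2694, 2140.4 and 1673 (-5.02, SE 0.52, adjusted p = 6.6e-07). *Clu* was 5.74, 14.4 and 4.9 against 54.7, 151 and 72.8 (-3.48, SE 0.50, adjusted p = 2.8e-05). Endothelial markers summed to 14.3 to 78.8 in CD44High against 7229.5 to 8666, with all 8 called lower, and epithelial and mesothelial markers to 4.35 to 22.4 against 27.4 to 87.2. The sum of mesenchyme markers in CD44High was 236 in replicate 20, 139 in replicate 21 and 0.272 in replicate 22, the order that *Sparc* and *Cav1* also took, and the part of these markers was not tested.

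*Lgals1*, *Cotl1* and *Ybx1* were higher in CD44High. *Lgals1* was 946, 1098 and 1089 normalized CPM against 175, 171 and 86.4 (log2 fold change 2.86, SE 0.31, adjusted p = 9.8e-07), above every library of the other populations, whose highest value was 471 in CD44Neg at E9.5. *Cotl1* was 94.8, 199 and 227 against 50.1, 50.1 and 44.9 (1.84, SE 0.30, adjusted p = 1.0e-04). *Ybx1* was 422, 345 and 436 against 184, 235 and 137 (1.11, SE 0.22, adjusted p = 6.2e-04). Macrophage markers were present in the same CD44High libraries (sum 995 to 2784, all 6 called higher), blood markers summed to 893 to 1676 against 4.49 to 16.1, and their part in these differences was not tested. *Ednrb* stood apart from the other endothelial members, with 97.6, 186 and 226 in CD44High against 58.1, 137 and 114 (0.72, SE 0.90, adjusted p = 0.596), and the groups overlapped. *Prtg* was 0, 25.3 and 0.544 against 4.57, 11.8 and 0 (log2 fold change 0.62, adjusted p = 0.723), and -4.53 without replicate 21. When only these 6 libraries entered the fit, *Cav1*, *Cotl1* and *Ybx1* were no longer called (adjusted p 0.0149, 0.0129 and 0.0394).

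CD44LowKitPos cells were compared with CD44LowKitNeg at E10, with 2 libraries each. All 5 genes called were lower in CD44LowKitPos, and they were *Sparcl1*, *Cav1*, *Ednrb*, *Tmem255a* and *Sparc*, while 1.81% of all genes were called lower and 0.417% higher. The median log2 fold change was -2.19 over the members, also with genes at 0 set to their bound, and 0.00 over all genes. *Cav1* was at 0 in both libraries against 39.6 and 341, at least 439-fold lower (adjusted p = 0.00267, edgeR). *Sparcl1* was at 0 in both against 67.5 and 159, at least 261-fold lower (adjusted p = 4.2e-04), and *Ednrb* was at 0 in both against 19.5 and 114, at least 155-fold lower (adjusted p = 0.0051). No read of these 3 genes was counted in either library. The bounds rest on replicate 16, without which they are 91.5-fold for *Cav1*, 156-fold for *Sparcl1* and 45-fold for *Ednrb*. *Tmem255a* was 0.931 and 0.4 against 6.88 and 166 (log2 fold change -7.01, SE 1.14, adjusted p = 0.00117), and -3.40 without replicate 16. *Sparc* was 91.3 and 146 against 744 and 1196 (-3.03, SE 0.58, adjusted p = 0.00348). The sum of endothelial markers was 766 to 1166 against 3723 to 5004, so these markers were reduced but present where *Cav1* was not counted. Blood markers summed to 764 to 1049.9 in CD44LowKitPos against 85.6 to 122, with *Ptprc* called higher (log2 fold change 12.23), epithelial and mesothelial markers to 65 to 74.2 against 26.5 to 31.2, and mesenchyme markers to 0.155 to 1.87 against 4.19 to 11.1. *Rn45s* took 6.82% to 9.26% of reads against 9.71% to 11.1%. The part of these values was not tested. Calls rested on single libraries: none of the 5 was kept without replicate 17 (adjusted p 0.0147 to 0.0968), and *Sparcl1* alone was kept without replicate 16 or replicate 18. Each such fit has 1 library in an arm, which is assumed to vary like the other groups. With only these 4 libraries in the fit none of the 5 was called (adjusted p 0.019 to 0.0893), and limma voom called *Sparcl1* and *Sparc* alone, beside 2.39% of all genes lower.

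The other 5 members were not called between these populations, though *Lgals1* and *Prtg* were in 2 and 1 of 11 alternative settings. *Clu* was 128 and 92.9 normalized CPM in CD44LowKitPos against 84.6 and 121 (log2 fold change 0.10, SE 0.54), and *Cotl1* was 85.9 and 62.8 against 42.5 and 82 (0.26, SE 0.35). *Ybx1* was 455 and 409 against 389 and 352 (0.22, SE 0.26). *Lgals1* was 67.8 and 64.7 against 149 and 189 (-1.35, SE 0.36, adjusted p = 0.0294), without overlap. *Prtg* was 7.6 and 11.2 against 0.168 and 0 (adjusted p = 0.0764).

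The single CD44LowKitPos library of E9.5 gives values with no replicate. It held 90.3 normalized CPM of *Cav1*, 38.1 of *Sparcl1*, 533 of *Sparc*, 13.1 of *Ednrb* and 13.4 of *Tmem255a*, all of which were lower or at 0 in the E10 libraries. *Prtg* (91.5), *Lgals1* (261), *Clu* (183) and *Ybx1* (690.2) were also above both E10 libraries, and *Cotl1* (30.9) was below both. The sum of endothelial markers was 1854 in the E9.5 library, and that of 6 blood markers was 281 against 764 to 1049.9 at E10. Within the E9.5 stage the single libraries of CD44LowKitNeg and CD44LowKitPos both had less *Tmem255a*, *Prtg*, *Cotl1* and *Lgals1* than any of the 4 CD44Neg libraries, and more *Cav1* and *Clu*, but these CD44Neg values had chosen the genes.

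**Figure D4:**
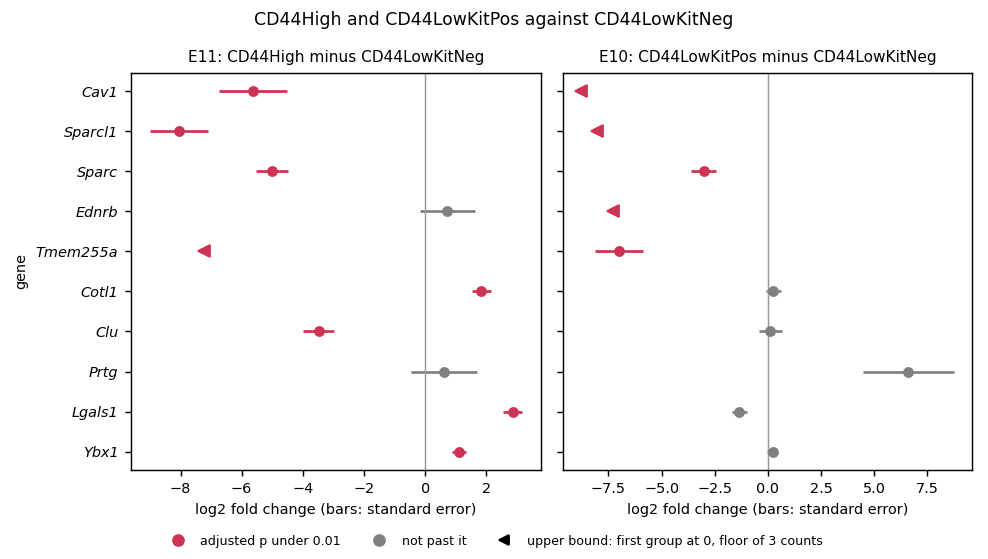
Log2 fold changes of the 10 genes in CD44High (left, E11) and CD44LowKitPos (right, E10) against CD44LowKitNeg, with bars of 1 standard error, red where the adjusted p was under 0.01 and grey otherwise. Triangles are upper bounds for genes at 0 in the first group, such as *Cav1*, *Sparcl1* and *Ednrb* at E10.

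Of the relatives of these genes on 9 family lists, 40 were tested, and their stage and population differences were read from the same fit. At E11 against earlier in CD44LowKitNeg, 0 were called higher and 1 lower by edgeR, a share near that of all genes (0.201% higher and 1.42% lower). That gene was *Ybx3*, the Y-box paralogue of *Ybx1*, at 83.2 normalized CPM in the E9.5 library, 87.3 and 138 at E10, and 23.4, 49 and 28.7 at E11 (log2 fold change -1.60, SE 0.33, adjusted p = 0.00842). In CD44Neg, *Ybx3* was 80.8 to 94.4 at E9.5 and 31.1 to 46.9 at E11, values from the contrast that chose the members.

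In CD44High at E11, 13 of the 40 relatives were lower and 2 were higher than in CD44LowKitNeg, beside 8.81% and 10.6% of all genes. In CD44LowKitPos at E10, edgeR called 4 lower and 0 higher, beside 1.81% and 0.417% of all genes. The caveola coat gave 5 of the 13 and 3 of the 4, which were *Cav2*, *Prkcdbp* and *Sdpr*. Its cavins *Ptrf* (cavin-1), *Prkcdbp* (cavin-3) and *Sdpr* (cavin-2) all fell in CD44High, with log2 fold changes of -6.03 (SE 0.39), -6.80 (SE 0.35) and -10.09 (SE 1.38). In CD44Neg, *Ptrf* and *Prkcdbp* had means of 77.6 and 204 at E9.5 and 109 and 252 at E11. *Cav2* and *Ehd2*, also called lower in CD44High, went from 108 to 229.9 and from 25.8 to 63.8, and *Sdpr* from 37.2 to 29.4. The means of *Cav1*, which had been chosen for its change there, were 42.6 and 971. *Sdpr* was 349.9 to 537 in the group means of CD44LowKitNeg and 29.4 to 53.4 in those of CD44Neg, and at E10 the difference was not called (log2 fold change 3.12, SE 0.95, adjusted p = 0.0807). In E10 CD44LowKitPos, where *Cav1* was at 0, *Ptrf* was 27 and 51.9 and *Prkcdbp* 45.3 and 52.3, while *Sdpr* was at 0 in both libraries.

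**Figure D5:**
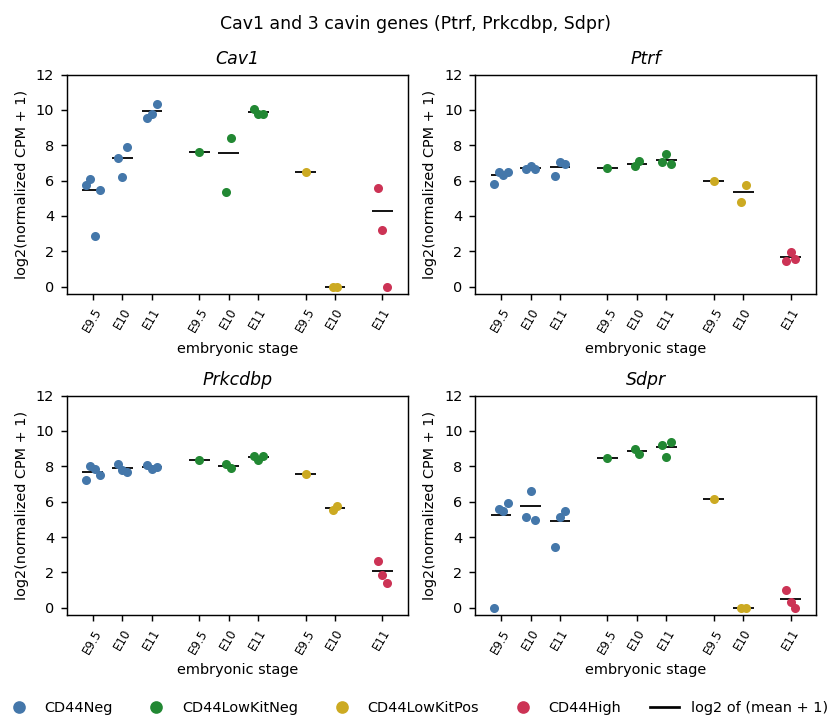
Levels of *Cav1* and the cavin genes *Ptrf*, *Prkcdbp* and *Sdpr* as log2(normalized CPM + 1) against stage, with 1 point per library coloured by population and a line at the log2 of the mean plus 1. In CD44Neg the mean of *Cav1* goes from 42.6 at E9.5 to 971 at E11, those of *Ptrf* and *Prkcdbp* go from 77.6 to 109 and from 204 to 252, and *Sdpr* is near 0 in CD44High.

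The other relatives called in CD44High came from 6 lists. *Fstl1*, a secreted follistatin-like protein of the SPARC family, fell by 5.28 on the log2 scale (SE 0.55). The endothelin gene *Edn1* and the endothelin-converting enzyme gene *Ece1* changed by -6.06 (SE 1.15) and -4.23 (SE 0.32), whereas the receptor *Ednrb* was not called. *Vldlr*, a lipoprotein receptor, fell by 7.12 (SE 1.25), and *Trem2*, a receptor of myeloid cells, was at 25.9, 117 and 132 normalized CPM in CD44High and at 0 in every other library (adjusted p = 5.4e-04). Among actin regulators with the domain that *Cotl1* carries, *Dbn1* (drebrin) and *Cfl2* (cofilin-2) changed by -6.04 (SE 0.48) and -2.25 (SE 0.44), and *Gmfg*, found mainly in blood cells, was higher by 3.90 (SE 0.52). *Neo1*, the neogenin gene related to *Prtg*, was lower (log2 fold change -2.54, SE 0.41). *Tmem255b*, the paralogue of *Tmem255a*, was lower too, at 0 in all 3 CD44High libraries against a mean of 46.4 (adjusted p = 0.0046). No galectin other than *Lgals1* was called among the 4 tested. In CD44LowKitPos, *Ece1* was lower (log2 fold change -2.17, SE 0.36, adjusted p = 0.00102).

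The level order over the 9 groups set the genes apart. *Tmem255a* was highest in the 3 CD44Neg groups, in the order E11, E10 and E9.5, and the last 2 overlapped. *Sparcl1* and *Sparc* were highest in CD44LowKitNeg at E11 and next in CD44Neg at E11, without overlap between these groups. *Ednrb* was highest in CD44Neg at E11, CD44High and CD44LowKitNeg at E11, in that order, and each of these groups overlapped the next. *Clu* was highest in the single CD44LowKitNeg library of E9.5 and lowest in CD44Neg at E11, which overlapped CD44High. *Prtg* and *Ybx1* were highest in CD44Neg at E9.5, where *Ybx1* overlapped the CD44LowKitPos library of that stage, *Lgals1* in CD44High, and *Cotl1* in CD44Neg at E11, overlapping CD44Neg at E10 and CD44High.

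For each member, the gene with the most similar pattern was taken from 6552 genes by Pearson's r over the 9 group means of log2 CPM, which share libraries and depth and which serve as a description. *Tmem255a* was closest to *Arhgap31*, a GTPase-activating protein (r = 0.995), *Sparc* to *Luzp1* (0.993), *Sparcl1* to the transcription factor gene *Nfib* (0.987) and *Cav1* to *Tanc1* (0.972). *Nfib* had a mean of 45.5 in CD44Neg at E9.5 and 83.5 at E11, and 158 in CD44LowKitNeg at E11. *Ednrb* was closest to the amino acid transporter gene *Slc7a7* (0.946), which was at 30.9 in CD44High and 0.775 in CD44LowKitPos at E10. Of the falling genes, *Prtg* was closest to *Hsd17b10* (0.980), *Ybx1* to the RNA-binding protein gene *Hnrnpab* (0.970), *Clu* to *Rabl2* (0.965) and *Lgals1* to *Cstb*, cystatin B (0.910). *Cotl1* was closest to *Ubxn8* (0.932). *Hnrnpab* was 398 at E9.5 and 196 at E11 in CD44Neg and 403 and 172 in CD44LowKitNeg, where E9.5 is 1 library.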

How the data were processed

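RNA of 25 sorted cells per library was amplified with SMART-Seq2. The counts were made by htseq-count from reads that the authors had aligned by RNA STAR after trimming with FASTX. FastQC and the mm10 build are named in the submitters' processing notes. Tool versions, the strand setting and the handling of reads shared between genes are not given in the sources used here. The deposited values were whole-number raw counts of 24454 gene symbols without normalization, and each column was matched to 1 library by its label.

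Counts were filtered with edgeR's filterByExpr by population (minimum count 10, minimum total 15) and scaled by TMM. A quasi-likelihood model of 9 population-by-stage groups (prior count 0.125, residual df 13) was fitted to all 22 libraries, with Benjamini-Hochberg adjustment over 12949 genes and calls at an adjusted p under 0.01. Standard errors came from the F statistic. R 4.3.3, edgeR 4.0.16, limma 3.58.1, DESeq2 1.42.0, Python 3.11.15 and matplotlib 3.10.9 were used, and the steps were tested on simulated data. Over 20 pairs of libraries of 1 group, chi-square per degree of freedom was 17 to 85.2, so no library was a repeat of another. Reads carried no molecular identifiers.

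The members, gene lists and tests were chosen with earlier results of these data known. Other genes named are, for each member, the gene with the highest Pearson's r over the 9 group means (log2 CPM, prior count 2, mean of at least 4), and up to 3 called relatives per family list by smallest adjusted p. *Cav2* and *Ehd2* were added as the other called genes of the caveola coat, and single markers are also named. The alternatives were DESeq2's size factors and Wald test, limma voom, no filter, only the compared libraries, no *Rn45s*, a threshold of 0.05, E10 or E9.5 alone, and leaving out each library. E9.5 and E10 as 1 group was added after seeing the data.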

Additional observations from a re-analysis of the deposited data

Results flagged for a closer look

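*Ybx1* in CD44Neg replicate 7 at E9.5 was 921 normalized CPM, while the other 3 E9.5 libraries were 682 to 714. Its gap to the nearest library was 0.867 of the range, above Dixon's 95% critical value for 4 samples. Of 10 member values tested in this way 1 stood out, and chance alone flags about 1 in 20 groups.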

How the results depend on the processing

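Over the 4 tested comparisons, the log2 fold changes of the members kept their direction and their side of the threshold in 134 of 159 alternative values for CD44LowKitNeg at E11 against earlier, 105 of 120 for CD44LowKitNeg against CD44Neg at E10, 125 of 130 for CD44High, and 79 of 110 for CD44LowKitPos. The untested CD44Neg values kept their direction in all 110. Members called in CD44LowKitNeg with stage were 1 as reported, 4 without the filter, 4 with limma voom, 2 with only the compared libraries (where *Prtg* was not tested), 2 at an adjusted p under 0.05, 0 against E10 alone, and 0 to 1 when each library was left out. These counts need not include *Ybx1*, which was called in 11 of the 16 alternatives. At E10 between CD44LowKitNeg and CD44Neg they were 0 as reported, 3 without the filter, 2 with DESeq2's Wald test, 1 with voom, 2 at 0.05 and 0 to 1 when each library was left out. They were 8 in CD44High, 5 with only the compared libraries. In CD44LowKitPos they were 5, 6 at 0.05, 2 with voom, 0 with only the compared libraries and 0 to 5 when each library was left out. There *Lgals1* and *Prtg* were called at an adjusted p under 0.01 in 2 and 1 of 11 alternatives. The signs of uncalled members turned in some settings, and the cause was not tested. For CD44LowKitNeg with stage, *Cotl1* was -0.36 against E10 alone, *Tmem255a* and *Prtg* were -0.54 and -3.01 against E9.5 alone, and *Tmem255a*, *Prtg* and *Cotl1* were -0.01, -1.45 and -0.07 with E9.5 and E10 as 1 group, a setting chosen after seeing the data. Leaving out each library gave -0.57 to 1.72 for *Tmem255a* and -0.36 to 0.48 for *Cotl1*. At E10 against CD44Neg, *Cav1* was -0.17 with voom, and left-out libraries gave -1.94 to 1.20 for *Cav1*, -1.04 to 0.23 for *Sparcl1*, -0.50 to 0.23 for *Sparc* and -0.49 to 3.41 for *Ednrb*. In CD44High, *Prtg* was -0.54 with voom and -4.53 to 1.82 with left-out libraries. In CD44LowKitPos, *Clu* was -0.0019 with DESeq2's size factors, -0.0018 with its Wald test and -0.23 to 0.34 with left-out libraries, and *Cotl1* was -0.24 to 0.76 with these.

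Over all genes, calls with stage in CD44LowKitNeg were 210, against 509 without the filter, 617 with DESeq2, 531 with voom, 573 at 0.05, 64 against E10 alone, 134 against E9.5 alone and 68 to 166 with each library left out (113 without replicate 11, 85 without 13, 68 without 14 and 108 without 15). For E10 CD44LowKitNeg against CD44Neg they were 31, against 387, 510, 173 and 365 in the first 4 of these settings 1 with only the compared libraries, and 3, 2, 20, 11 and 12 without replicates 8, 9, 10, 15 and 16. For CD44High they were 2519, against 1160 with only the compared libraries and 3945 at 0.05, and voom moved the median of all genes to 0.20. For CD44LowKitPos they were 288, against 618, 849, 494 and 793 in the first 4 settings, 8 with only the compared libraries, and 83 to 224 with each library left out (138 without replicate 16, 83 without 17 and 181 without 18). Groups of 1 or 2 libraries limit these tests. No paired analysis was possible because the replicate numbers are not shared between groups.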
